A study of Mus musculus with 6 samples.

Results

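The Hox genes code for homeodomain transcription factors, and 39 genes with a name of that family (Hoxa, Hoxb, Hoxc or Hoxd followed by a number) were found among the 37074 gene names on the arrays. They were taken by this name rule and were carried by 52 probes, 10 of the genes having 2 or more. RNA came from osteoclasts, the multinucleated cells that resorb bone, grown from mouse bone marrow cells under RANKL, the cytokine that drives osteoclast formation, for 5 days. The 3 Ano1fl/fl mice carry loxP sites on both sides of Ano1, which codes for the calcium-activated chloride channel Anoctamin 1. Their 3 Ctsk-Cre;Ano1fl/fl littermates carry the same floxed alleles and a Cre recombinase driven from cathepsin K, a gene that osteoclasts use strongly, so deletion is confined by design to cells in which that promoter has been active. The methods describe osteoclast cultures as made from mice aged 6 to 8 weeks with 50 ng/ml RANKL and 30 ng/ml M-CSF. The comparison asked which Hox genes could be measured in these cultures, and whether their signals differed between the arrays labelled with the 2 genotypes.

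Hox genes lie in clusters in which the order along the chromosome follows the order of use along the body, from the head end (low paralog numbers) to the tail end and the tips of the limbs (high numbers). Fibroblasts and other mesenchymal cells of the adult keep the Hox combination of the place they come from, so the set of active Hox genes acts as a positional label of stroma. Blood-forming cells use another set, mainly of the Hoxa and Hoxb clusters, which is active in stem and progenitor cells and is turned down as they mature. Hox proteins bind DNA together with the TALE homeodomain cofactors of the Pbx and Meis families.

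Each array probe is a stretch of 60 bases of the transcript, and the probes behind the calls described here are identified by their first 30 bases, 5′ to 3′, as the array files give them. The positions are those of the whole probe on the mm9 build: Hoxa10 at chr6:52181437-52181496 (minus strand), Hoxc9 at chr15:102814735-102814794 (plus strand), Hoxc6 at chr15:102842243-102842302 for the brighter and chr15:102842033-102842093 for the dimmer probe (plus strand), Hoxa4 at chr6:52140287-52140346 (minus strand) and Hoxb4 at chr11:96182885-96182944 (plus strand). None of the 13 tested Hox probes shared a run of more than 16 bases with a probe of another gene, on either strand, among 56605 probes searched. Of the 52 Hox probes, 46 had an accession that was in the RefSeq table used here (GRCm38.p6), all with the same symbol. For the probes listed next, the tables used here do not say whether they lie in coding sequence.
Hoxa10: tgagagaagggagatattgtttggatttcc
Hoxc9: tgcaaactcttgcgatgtgggagggttaag
Hoxc6, brighter probe: cctcctgtataaatccgacctctggatccg
Hoxc6, dimmer probe: tcgaacgtgaccgtttctgtgtgaatattt
Hoxa4: atataatctagagacctggatcagtttctc
Hoxb4: tggtgtgaaaatttgtgtcctgtacagagt

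A further probe, that of Hoxc11 at chr15:102787015-102787074 (mm9, plus strand), lies inside the homeobox itself, the stretch that codes for the DNA-binding homeodomain. It is shown whole, and the capitals mark bases 38 to 49, which in 1 reading frame code for the residues W, F, Q and N that nearly all homeodomains share in the helix that contacts DNA. Although this core is common to the family, its longest run shared with a probe of another gene was 15 bases.
Hoxc11: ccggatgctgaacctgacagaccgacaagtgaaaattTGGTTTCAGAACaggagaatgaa

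Each array had between 33480 and 34951 of its 59305 transcript spots well above background. Of the 20645 genes that could be tested, 23.4% were called higher in the group labelled Ctsk-Cre;Ano1fl/fl and 29.0% were called lower (limma, Benjamini-Hochberg adjusted p under 0.05), so a large share of all genes differed between the groups. Without normalization between the arrays these shares were 12.4% and 33.9%, and the median difference of all genes moved from −0.06 to −0.30 on the log2 scale. The only Ano1 probe was below background on all 6 arrays, with log2 signals between 1.70 and 2.04, so it could not check the labels. Of the 11 osteoclast markers tested, 10 had higher signals in the group labelled Ctsk-Cre;Ano1fl/fl, among them Ctsk by 3.17 and Calcr, which was above background on 2 of the 3 Ano1fl/fl arrays, by 8.89 on the log2 scale, with Tnfrsf11a lower. The count takes Nfatc1 by its brighter probe (0.53), while another probe gave −0.53. This direction is opposite to the one the study describes for osteoclast genes in bone and in cultured osteoclasts of these mice, so the labels of the groups are in doubt. Whether they were exchanged was not tested, and an exchange would turn the sign of every difference below. Directions are given for the arrays as labelled.

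Only part of the Hox family could be measured. A probe was counted as well above background where the scanner software marked it so, and the lowest signal marked in this way lay between 3.70 and 4.22 on the log2 scale, depending on the array. On all 3 arrays of both groups, 5 Hox genes were well above background, among them Hoxa7, Hoxa9, Hoxb3 and Hoxb4. On all 3 Ctsk-Cre;Ano1fl/fl arrays but not on all 3 Ano1fl/fl arrays there were 4 more, Hoxa10, Hoxc6, Hoxc8 and Hoxc9, and on all 3 Ano1fl/fl arrays but not on all 3 Ctsk-Cre;Ano1fl/fl arrays there was 1, Hoxa4. These 10 genes were tested. Another 7 had a probe above background on some arrays only (Hoxa3, Hoxa11, Hoxc4, Hoxc5, Hoxc10, Hoxc11 and Hoxd8).

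The other 22 were not well above background on any array. They were Hoxa2, Hoxa5, Hoxa6 and Hoxa13 of the Hoxa cluster, Hoxb1, Hoxb2, Hoxb5, Hoxb6, Hoxb7, Hoxb8, Hoxb9 and Hoxb13 of the Hoxb cluster, Hoxc12 and Hoxc13, and Hoxd1, Hoxd3, Hoxd4, Hoxd9, Hoxd10, Hoxd11, Hoxd12 and Hoxd13. For these genes only a bound is known, and they cannot be called silent. The tested genes were 5 of 11 in the Hoxa cluster, 2 of 10 in Hoxb, 3 of 9 in Hoxc and 0 of 9 in Hoxd. Counted by array, 9, 10 and 8 of the 52 Hox probes were well above background on Ano1fl/fl replicates 1 to 3, against 20, 15 and 12 on Ctsk-Cre;Ano1fl/fl replicates 1 to 3.

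**Figure D1:**
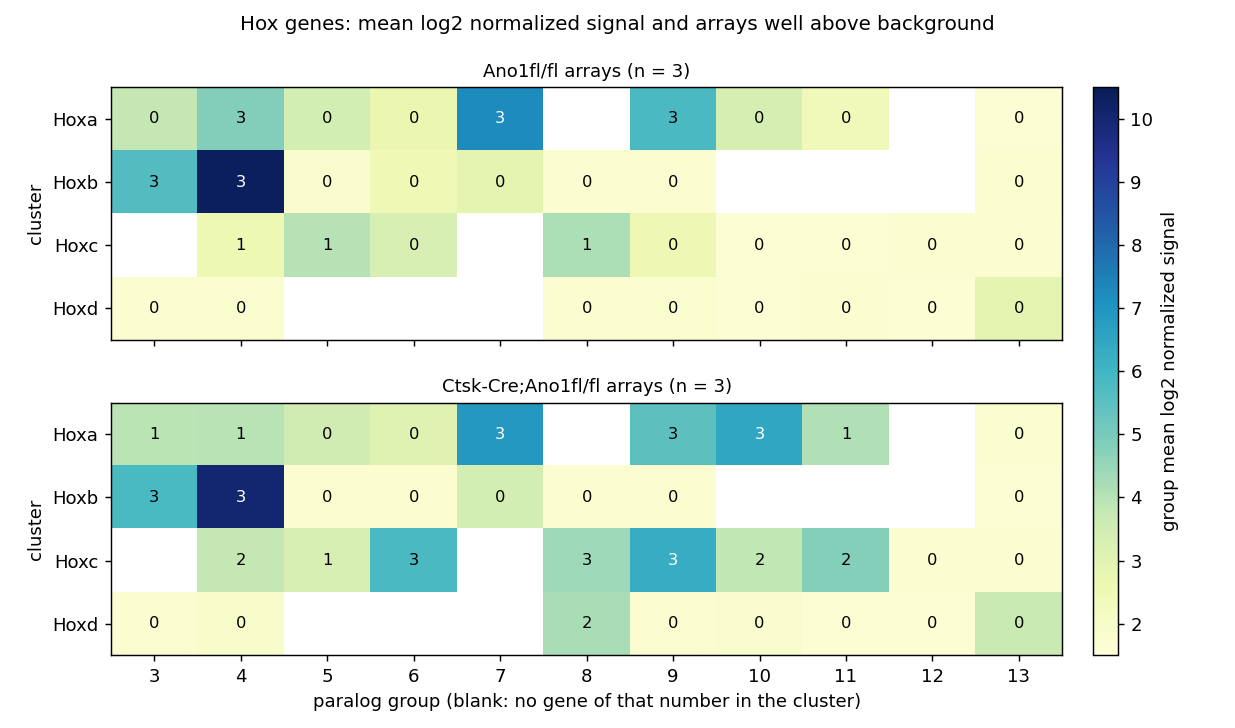
The colour of each cell gives the mean log2 normalized signal of a Hox gene over the 3 arrays of a group, by cluster (rows) and paralog group (columns, groups 3 to 13), and the number in the cell gives on how many of the 3 arrays its probe was well above background. Most cells hold 0 in both groups, and Hoxa10, Hoxc6 and Hoxc9 go from 0 arrays in Ano1fl/fl to 3 in Ctsk-Cre;Ano1fl/fl. Shades of different genes come from different probes and give no order of abundance.

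In all, 3 of the 10 tested Hox genes were called higher on the Ctsk-Cre;Ano1fl/fl arrays (Hoxa10, Hoxc6 and Hoxc9), against 23.4% of all genes tested, and 3 were called lower (Hoxa4 and Hoxb4 among them), against 29.0%. The 3 higher genes passed the filter on dim probes only through the group in which they were bright, and so did Hoxa4 in the other direction, so these counts are a description. The 3 higher genes were above background on all 3 Ctsk-Cre;Ano1fl/fl arrays and on no Ano1fl/fl array, as 2.61% of the genes tested were. Genes that passed through 1 group only are a wider class, since 18644 of the 20645 genes tested passed on all 6 arrays. Among the 5 Hox genes measured on all 6 arrays, 2 were called lower and 0 higher, beside 29.5% and 22.2% of all genes when the filter asked for all 6 arrays. The groups did not overlap for 8 of the 10 tested Hox genes, against 64.0% of all genes tested, but those of Hoxa7 and Hoxb3 lay apart by less than the digits printed here. The median difference of the 10 was −0.07 on the log2 scale, beside −0.06 for all genes. By probe, 4 of 13 tested Hox probes were called higher, against 21.8% of all probes, and 4 lower, against 30.6%.

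Hoxc9, which in the embryo specifies trunk identity and helps to pattern the spinal cord and the ribs, was among the higher genes. Its processed signals before normalization were 5.00, 5.32 and 7.25 on the Ano1fl/fl arrays against 91.0, 70.3 and 57.4 on the Ctsk-Cre;Ano1fl/fl arrays. After quantile normalization the log2 signals were 2.47, 2.41 and 2.69 against 6.47, 6.42 and 5.96. All 3 Ano1fl/fl arrays were below background, and the groups lay far apart. The group means were 2.52 ± 0.15 and 6.28 ± 0.28 (SD, n = 3 each), a fitted difference of 3.76 ± 0.16 (SE) with an adjusted p of 2.29e-05 in limma. Because one side was not measured, the size is stated as a bound, at least 4.97-fold higher on the Ctsk-Cre;Ano1fl/fl arrays. This and the other bounds hold for the processed signals as used here, not for other background handling.

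Hoxa10, a posterior gene that patterns the proximal hindlimb, the lumbar vertebrae and the uterus, gave processed signals of 8.61, 7.95 and 16.3 on the Ano1fl/fl arrays against 111, 82.7 and 60.3 on the Ctsk-Cre;Ano1fl/fl arrays. The log2 normalized signals were 3.23, 2.96 and 3.81 against 6.76, 6.66 and 6.03. Again the Ano1fl/fl arrays were all below background and the others all above it, with replicate 3 the lowest of the Ctsk-Cre;Ano1fl/fl group. The means of 3.33 ± 0.43 and 6.48 ± 0.40 (SD, n = 3 each) differed by 3.15 ± 0.28 (SE), with an adjusted p of 0.00031 in limma, and the fold was at least 5.71. A second Hoxa10 probe read 1.71, 1.76 and 1.74 against 4.09, 4.08 and 3.47. It rose above background on 1 Ctsk-Cre;Ano1fl/fl array and was not tested, but its groups did not overlap either.

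Hoxc6, a gene of the thoracic region and the forelimb that is also used in mammary and prostate development, was measured by 2 probes. The brighter one gave 2.88, 3.71 and 3.24 on the log2 scale on the Ano1fl/fl arrays against 6.16, 5.75 and 5.50 on the Ctsk-Cre;Ano1fl/fl arrays. The difference was 2.53 ± 0.25 (SE) with an adjusted p of 0.000503 in limma, and at least 3.57-fold as a bound. The dimmer probe read 1.75, 1.76 and 1.76 against 5.09, 4.71 and 4.83, at least 1.88-fold higher. Its fitted difference was 3.12 ± 0.11 (SE), with an adjusted p of 1.28e-05 in limma over probes. The Ano1fl/fl signals of this probe lay at the floor of the arrays (SD 0.005). Its SE and p therefore do not measure the spread between cultures in that group and are a description. Both probes were below background on every Ano1fl/fl array and above it on every Ctsk-Cre;Ano1fl/fl array. The sizes of all 3 higher genes depended on how background was handled, since the normexp correction gave differences of 1.07 for Hoxc9, 1.07 for Hoxa10 and 0.69 for Hoxc6, each still called but below the bounds given above, and the series matrix values, which carry no background subtraction, gave 1.62, 1.56 and 1.04.

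**Figure D2:**
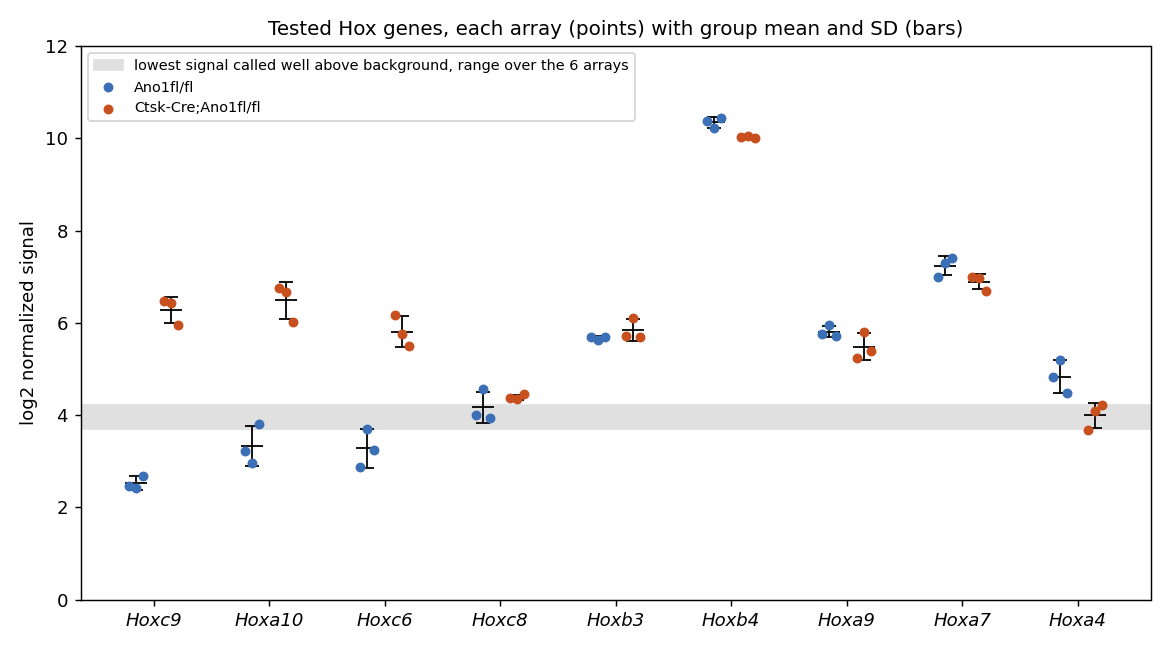
Log2 normalized signal (vertical axis) of the tested Hox genes of paralog groups 3 to 13 on each of the 3 Ano1fl/fl and 3 Ctsk-Cre;Ano1fl/fl arrays, as points, with the group mean and SD as bars, ordered by the difference between groups. The grey band is the range over arrays of the lowest signal well above background, 3.70 to 4.22, and Hoxc9, Hoxa10 and Hoxc6 are the genes that lie below or inside it in one group and well over it in the other.

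Among the lower genes, Hoxb4, which is known for promoting the self-renewal of haematopoietic stem cells, read 10.38, 10.21 and 10.43 on the Ano1fl/fl arrays against 10.03, 10.05 and 9.99 on the Ctsk-Cre;Ano1fl/fl arrays. The groups did not overlap but came within less than 0.2 of each other. The difference was −0.32 ± 0.08 (SE), a 1.25-fold lower signal, with an adjusted p of 0.0185 in limma. This call did not hold without Ano1fl/fl replicate 1 (adjusted p 0.0552), Ano1fl/fl replicate 3 (0.0592) or Ctsk-Cre;Ano1fl/fl replicate 3 (0.0556).

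Hoxa4, a neck and upper trunk gene, read 4.83, 5.19 and 4.48 against 3.68, 4.09 and 4.21. It was above background on all 3 Ano1fl/fl arrays and on 1 Ctsk-Cre;Ano1fl/fl array. The difference was −0.84 ± 0.22 (SE) with an adjusted p of 0.0189 in limma. Leaving out Ano1fl/fl replicate 1 or Ctsk-Cre;Ano1fl/fl replicate 1 gave an adjusted p of 0.0523 in both cases, and the normexp correction gave a difference of −0.23, which was not called, while the series matrix values gave −0.29 (adjusted p 0.0489). The call was also lost with the methods' t-test (adjusted p 0.0632) and without the filter on dim probes (0.0566).

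The 4 tested Hox genes without a call were Hoxa7, Hoxa9, Hoxb3 and Hoxc8. Hoxa7, a trunk gene also used in early blood cells, read 7.001, 7.31 and 7.39 on the Ano1fl/fl arrays against 7.001, 6.97 and 6.70 on the Ctsk-Cre;Ano1fl/fl arrays. The groups met at the value of replicate 1, and the difference of −0.34 ± 0.14 (SE) had an adjusted p of 0.0768 in limma, or 0.03 with a difference of −0.46 without Ano1fl/fl replicate 1.

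Hoxa9, a gene of blood progenitors and of the posterior trunk that is active in many leukaemias, had 2 tested probes. The brighter, which spans an intron in the files' coordinates, read 5.76, 5.95 and 5.71 against 5.24, 5.81 and 5.38, a difference of −0.33 ± 0.16 (SE) with an adjusted p of 0.129 in limma. Its groups overlapped through Ctsk-Cre;Ano1fl/fl replicate 2, without which the difference was −0.50 with an adjusted p of 0.0166. The dimmer probe read 4.44, 4.72 and 4.82 against 4.41, 2.98 and 3.01, was above background on 1 Ctsk-Cre;Ano1fl/fl array, and differed by −1.19 ± 0.39 (SE) with an adjusted p of 0.0413 in limma over probes, a call that was lost when any single array other than Ctsk-Cre;Ano1fl/fl replicate 1 was left out. The gene has another probe, which was below background everywhere. The tested probes thus shared a sign but not a call, and the mean of all 3 probes, the one below background included, gave −0.50 with an adjusted p of 0.0123.

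Hoxb3, an anterior gene of the hindbrain and pharyngeal arches that is also used in blood progenitors, read 5.70, 5.63 and 5.69 against 5.72, 6.11 and 5.70. The groups met at 5.70, and the difference was 0.17 ± 0.12 (SE) with an adjusted p of 0.286 in limma. A second tested probe read 5.21, 5.59 and 5.25 against 5.03, 5.11 and 5.56, a difference of −0.11 ± 0.18 (SE) with an adjusted p of 0.611. The probes of this gene differed in sign, so no direction is given. Hoxc8, a trunk gene that acts in vertebral and limb cartilage, read 4.004, 4.56 and 3.94 against 4.37, 4.34 and 4.45, close to the background limit on every array. Its difference was 0.22 ± 0.17 (SE) with an adjusted p of 0.313 in limma. It rose to 0.42 with an adjusted p of 0.0139 when Ano1fl/fl replicate 2, the only array of that group on which the probe was above background, was left out.

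The 7 Hox genes that were above background on some arrays only were not tested, and their values are given as they were read. Hoxc11, a posterior gene of the sacral region and the hindlimb whose homeobox probe is shown above, read 1.71, 1.71 and 1.71 on the Ano1fl/fl arrays against 5.70, 4.92 and 3.79 on the Ctsk-Cre;Ano1fl/fl arrays, the first 2 of which were above background. Hoxc10, its neighbour, which patterns the lumbar region and the hindlimb, read 1.71, 1.71 and 1.69 against 4.50, 4.29 and 2.68, again above background on 2 of the 3. Hoxd8, a trunk gene of the Hoxd cluster, read 1.72, 1.71 and 1.71 against 4.75, 4.65 and 3.29, with the same 2 arrays above background. In each of these 3 genes the Ctsk-Cre;Ano1fl/fl array that was not above background was replicate 3.

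Hoxa11, which patterns the forearm and lower leg, was above background on Ctsk-Cre;Ano1fl/fl replicate 1 alone, with log2 signals of 1.70, 3.24 and 2.30 against 4.77, 4.17 and 3.34. Hoxa3, a gene of the pharyngeal arches, thymus and parathyroid, was above background on the same array alone and read 3.90, 3.46 and 4.05 against 4.26, 3.75 and 3.83. These 5 genes were above background on Ctsk-Cre;Ano1fl/fl arrays only. Hoxc4, a gene of the neck and upper trunk, read 4.36, 1.72 and 1.72 against 4.30, 4.40 and 2.72, above background on 1 Ano1fl/fl and 2 Ctsk-Cre;Ano1fl/fl arrays. Its neighbour Hoxc5 read 3.56, 5.38 and 3.11 against 4.87, 2.79 and 2.20, above background on 1 array of each group, and its groups overlapped widely.

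When 2 of the 3 arrays of a group were enough to pass, a setting chosen after the data were seen, 14 Hox genes were tested. Hoxc11, Hoxd8 and Hoxc10 were then called higher, but they passed this filter only through the group in which they were bright, and their Ano1fl/fl signals were all below background, so the call is a description. As bounds, Hoxc11 was at least 1.78-fold and Hoxd8 at least 1.20-fold higher, and no bound above 1 could be given for Hoxc10. Hoxc4 differed by 1.21 ± 0.85 and was not called (adjusted p 0.276). With the filter at that level 22.8% of all genes were called higher.

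**Figure D3:**
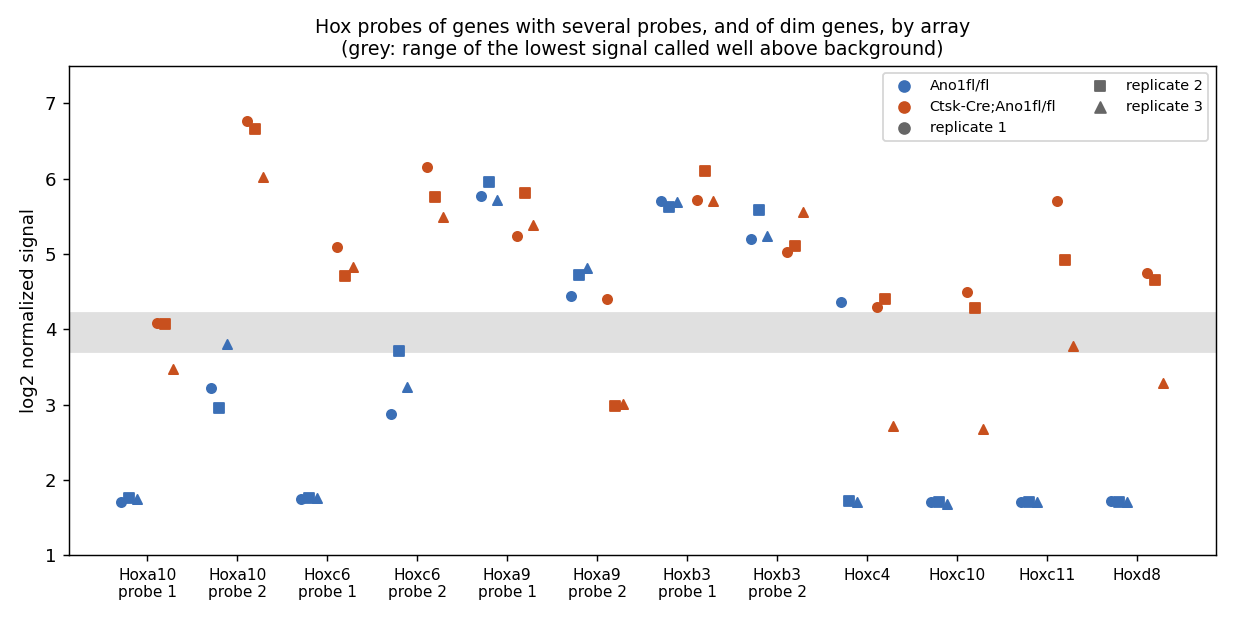
Log2 normalized signal (vertical axis) of single Hox probes on each array, with the groups by colour and the replicates by marker shape; where a gene had several probes above background on any array, they stand side by side as probe 1 and probe 2. Both Hoxa10 and both Hoxc6 probes are higher on all 3 Ctsk-Cre;Ano1fl/fl arrays, the Hoxb3 probes differ in sign, and replicate 3 is the lowest Ctsk-Cre;Ano1fl/fl array for Hoxa10, Hoxc10, Hoxc11 and Hoxd8.

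Set out by paralog number, 15 Hox genes belong to groups 4 to 8 and 16 to groups 9 to 13. Tested genes numbered 5 and 3 in these regions. The calls were 1 higher and 2 lower in groups 4 to 8 (Hoxc6 higher, Hoxa4 and Hoxb4 lower), and 2 higher and 0 lower in groups 9 to 13 (Hoxa10 and Hoxc9). By cluster, Hoxb had 0 higher and 1 lower, Hoxc 2 higher and 0 lower, and in Hoxd no gene was tested. Of all genes tested, 23.4% were called higher and 29.0% lower. Hoxa10, Hoxc6, Hoxc9 and Hoxa4 passed the filter only through the group in which they were bright. These counts are a description, too small for a comparison between regions or clusters, and none was made.

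The RefSeq promoter table (GRCm38.p6) held 24 promoters of 22 Hox genes. Of the called genes, Hoxa10 and Hoxb4 were in it. The 250 bases before the start are shown for both because Hoxa10 was among the higher and Hoxb4 among the lower genes, for Hoxa10 at the start that is nearer to the 3′ end of the gene (chr6:52234940-52235189, minus strand) and for Hoxb4 at chr11:96318017-96318266 (plus strand). Capitals mark the homeodomain core TAAT, searched on both strands, so that it reads ATTA where it lies on the other strand.
Hoxa10 promoter: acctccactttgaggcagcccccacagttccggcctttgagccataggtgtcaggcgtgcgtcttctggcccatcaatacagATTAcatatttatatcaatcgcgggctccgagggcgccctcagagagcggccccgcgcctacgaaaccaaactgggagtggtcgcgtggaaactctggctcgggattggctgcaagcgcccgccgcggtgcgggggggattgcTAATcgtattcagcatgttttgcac
Hoxb4 promoter: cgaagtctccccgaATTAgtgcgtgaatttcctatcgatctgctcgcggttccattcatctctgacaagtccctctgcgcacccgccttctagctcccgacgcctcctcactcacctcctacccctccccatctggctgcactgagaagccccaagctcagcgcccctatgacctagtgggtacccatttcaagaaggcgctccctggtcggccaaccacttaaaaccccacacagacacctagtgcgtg

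The TAAT core occurred 2 times in the Hoxa10 window and 1 time in that of Hoxb4. It was present in 54.9% of all 32851 promoters and in 18 of the 24 Hox promoters. The composite Pbx-Hox motif TGATNNAT was in neither window, in 7.68% of all promoters and in 4 of the 24 Hox promoters, and the Meis motif TGACAG was in neither window, in 15.9% of all promoters and in 2 of the 24. These matches describe the letters in the windows and say nothing of binding.

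The Hox clusters also give rise to long non-coding RNAs, several of them antisense to Hox genes. Of 11 listed transcripts on the array, 7 were tested, all of them with probes in a Hox cluster. Among these 1 was higher and 2 were lower, shares not above the 23.4% and 29.0% of all genes. Hoxa11os, the antisense partner of Hoxa11, read 4.51, 4.60 and 4.05 on the Ano1fl/fl arrays against 5.59, 5.67 and 5.48 on the Ctsk-Cre;Ano1fl/fl arrays, a difference of 1.19 ± 0.16 (SE) with an adjusted p of 0.00135 in limma. The groups did not overlap, and those of Hoxa11 itself, which could not be tested, did not overlap either but lay close (3.24 against 3.34 at the nearest). Mira, whose probe lies between those of Hoxa6 and Hoxa7, was lower by 0.64 (difference −0.64 ± 0.14, SE, adjusted p 0.00977), and Hoxaas2, whose probe lies beside that of Hoxa3, differed by −0.68 ± 0.17 (adjusted p 0.0161), having passed the filter only through the Ano1fl/fl arrays. Hottip, from the 5′ end of the Hoxa cluster, and Haglr, from the Hoxd cluster, were above background on all 6 arrays and were not called, with differences of 0.23 and −0.23. Of the ParaHox and Evx homeobox genes, 1 of 8 was tested. This was Evx2, which lies beside the Hoxd cluster and was not called (−0.12).

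Among the TALE cofactors, 7 of 9 were tested, with 2 higher and 3 lower, beside 23.4% and 29.0% of all genes, and a median difference of −0.29. Meis2, a limb and mesenchymal cofactor, read 1.69, 1.73 and 1.72 against 5.40, 5.06 and 4.83. It was below background on all Ano1fl/fl arrays and above it on all Ctsk-Cre;Ano1fl/fl arrays, as Hoxa10, Hoxc6 and Hoxc9 were, and was at least 2.19-fold higher (fitted difference 3.38 ± 0.15, SE, adjusted p 2.51e-05 in limma). Meis2 thus passed the filter only through the group in which it was bright, and its call and the count of higher cofactors are a description. Meis3 was higher by 0.32 (adjusted p 0.0483). Meis1, the partner of Hoxa9 in blood progenitors, read 8.71, 8.82 and 8.94 against 8.18, 8.30 and 7.94, a difference of −0.68 ± 0.12 (SE) with an adjusted p of 0.00399. Pbx3 and Pbx2 were also lower, with differences of −0.50 and −0.29. These sizes come from the brightest probe of each gene. Over the probes above background on at least 3 arrays, the differences ran from −2.54 to −0.50 for Pbx3 and from −2.43 to −0.68 for Meis1. They ran from −0.29 to −0.16 for Pbx2 and from 0.32 to 1.44 for Meis3.

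Other transcription factors that mark the position of limb and mesenchymal cells were listed as a group of 46, of which 20 were tested. Higher signals were called for 12 and lower for 2, beside 23.4% and 29.0% of all genes, and the median difference was 1.48. Of the 12 higher genes, 9 passed the filter only through the group in which they were bright, 7 of them with no Ano1fl/fl array above background, which makes the count and the median a description. Tbx3, a limb and mammary factor, read 2.67, 1.71 and 1.69 against 8.88, 8.92 and 8.42 and was at least 27.3-fold higher. Emx2, which shapes the scapula and the urogenital tract, was at least 10.8-fold higher, Twist2 at least 7.31-fold and Tbx15 at least 7.17-fold, with limma adjusted p between 1.04e-05 and 5.59e-05. Pitx1, the factor that gives the hindlimb its identity, read 2.71, 2.29 and 1.71 against 7.19, 7.25 and 6.77 and was at least 8.59-fold higher (adjusted p 6.08e-05). Tbx4 of the hindlimb and Tbx5 of the forelimb were below background on all 6 arrays. Prrx1, a marker of limb mesenchyme, was above background on all 6 and differed by 3.00 ± 0.16 (SE, adjusted p 4.93e-05). The 2 lower factors were Lhx2 (−1.15), which passed the filter only through the Ano1fl/fl arrays, and Barx2 (−0.40).

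Among signals that pattern the limb, 7 of 14 were tested, 2 were higher and 0 lower, again beside 23.4% and 29.0% of all genes. These were Grem1, a BMP antagonist, by 6.94, and Wnt5a by 2.17. Of 8 tested genes tied to Hox control by retinoic acid and related inputs, 4 were higher and 2 lower, beside the same 23.4% and 29.0%. Of the higher ones, Cyp26b1 and Aldh1a2 passed the filter only through the group in which they were bright, so the count is a description. Cyp26b1, which breaks retinoic acid down, was at least 12.5-fold higher, and Aldh1a2, which makes it, differed by 2.93, with Rxra at 0.97 and Nr6a1 at 0.58. Gmnn (−1.04) and Rara (−0.26) were lower.

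**Figure D4:**
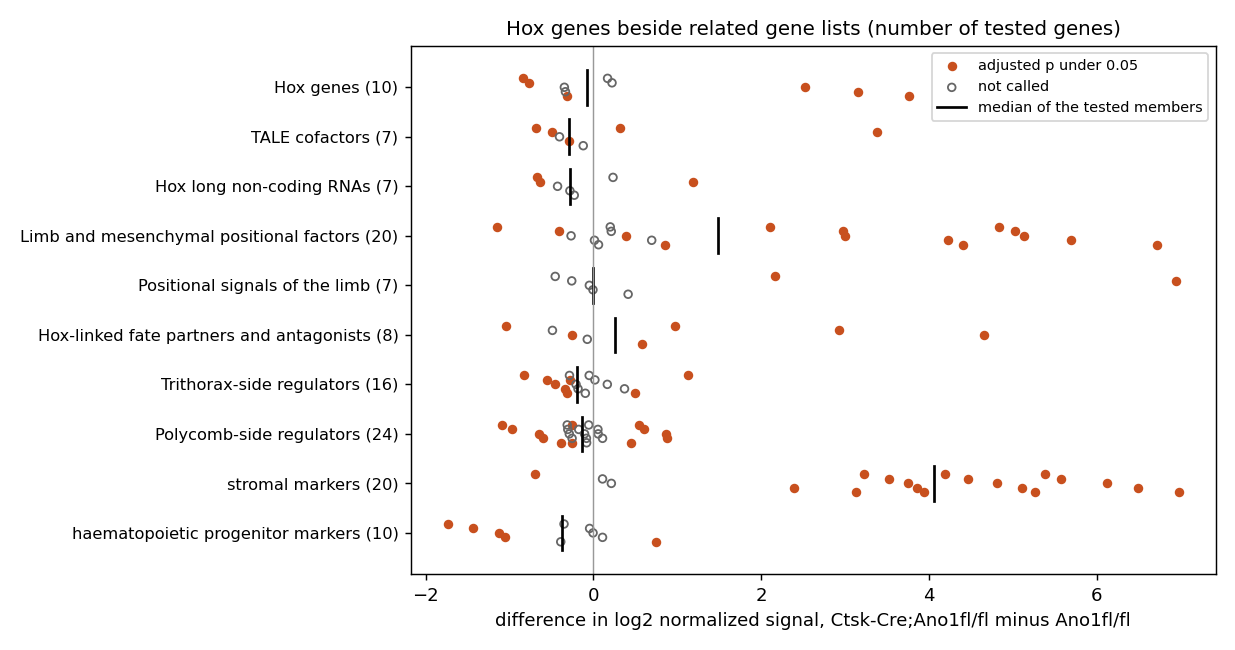
Difference in log2 normalized signal between the Ctsk-Cre;Ano1fl/fl and Ano1fl/fl arrays (horizontal axis) of each tested gene, for the 10 Hox genes and for related gene lists, filled where limma's adjusted p was under 0.05, with the median of each list as a bar. The points of Hoxa10, Hoxc6 and Hoxc9 stand apart from the other Hox genes, but their positions are fitted values against signals below background and shrink with other background handling, and the median of the positional factors is 1.48 and that of the stromal markers 4.07.

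Marker lists of other cell types were read beside these genes. All 20 stromal markers were tested, 17 were higher and 1, Lepr, was lower, beside 23.4% and 29.0% of all genes, with a median difference of 4.07, and 4 of the higher ones passed the filter only through the group in which they were bright. Their summed signal was 7325 to 8197 on the Ano1fl/fl arrays against 80710 to 131000 on the Ctsk-Cre;Ano1fl/fl arrays, and the collagen gene Col1a1 differed by 6.12. Pdgfra, a defining receptor of mesenchymal cells, was below background on all Ano1fl/fl arrays and at least 8.93-fold higher on the others. The mean log2 signal of the list was 7.22, 7.04 and 6.77 on Ano1fl/fl replicates 1 to 3 and 11.21, 10.89 and 10.62 on Ctsk-Cre;Ano1fl/fl replicates 1 to 3. Replicate 3 was thus the lowest of the Ctsk-Cre;Ano1fl/fl group for these markers as it was for Hoxa10, Hoxc9, Hoxc10, Hoxc11, Hoxd8 and the brighter Hoxc6 probe, while replicate 2 was the lowest for the dimmer Hoxc6 probe. Without that array the differences of Hoxc9, Hoxa10 and Hoxc6 were 3.92, 3.38 and 2.68. The part of the stromal markers in the Hox differences was not tested, and in RNA from a whole culture more cells of a type and more RNA per cell cannot be told apart.

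Markers of haematopoietic progenitors, the cells in which Hoxa9, Hoxb4 and Meis1 are best known, were tested for 10 of 12 genes. Lower signals were called for 4 and a higher one for 1, Procr, beside 29.0% and 23.4% of all genes, and the median difference was −0.37. Their summed signal was 88070 to 92600 on the Ano1fl/fl arrays against 36510 to 49200 on the Ctsk-Cre;Ano1fl/fl arrays, a sum set mostly by Ly6a (mean log2 signals of 16.19 and 14.46). The lower ones were Ly6a (−1.74), Cd34 (−1.43), Myb (−1.13) and Gata2 (−1.06), and Kit was not called (−0.39, adjusted p 0.0719). Granulocyte precursor markers were lower for 10 of 14 and higher for 1, beside the same 29.0% and 23.4%. Of the other lists, osteoblast markers were higher for 2 and lower for 2 of 6 tested, chondrocyte markers higher for 1 of 4, endothelial markers higher for 1 and lower for 2 of 7, and macrophage markers higher for 3 and lower for 3 of 11, numbers too small to set apart from those shares. The higher chondrocyte marker and 1 of the 2 higher osteoblast markers passed the filter only through the group in which they were bright, so these counts are a description. The part of these lists in the lower signals of Hoxa4 and Hoxb4 was not tested.

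**Figure D5:**
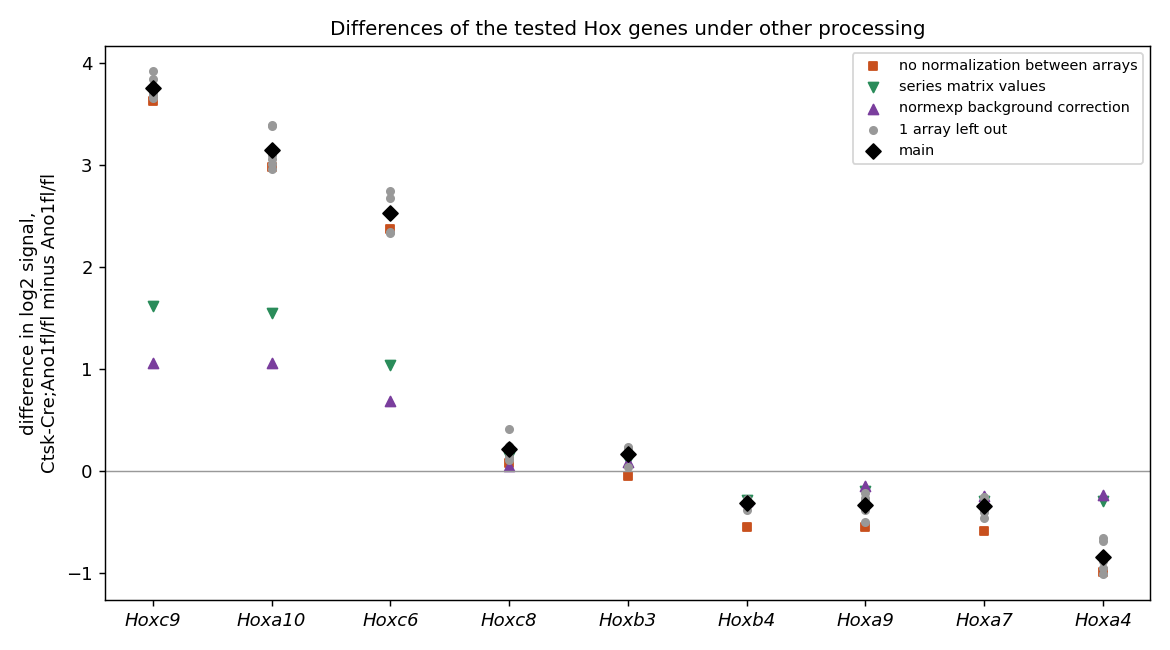
Difference in log2 signal between the groups (vertical axis) of the tested Hox genes of paralog groups 3 to 13 with the processing used here (black diamonds), with each array left out in turn (grey circles), with normexp background correction, with the series matrix values and without normalization between arrays. Hoxc9, Hoxa10 and Hoxc6 stay above 0.6 throughout but shrink to 1.62, 1.56 and 1.04 with the series matrix, and Hoxb3 lies on either side of 0.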

How the data were processed

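Agilent one-colour arrays were read by the submitters with Agilent Feature Extraction 10.7.1.1, per their processing notes. The deposited scanner files hold intensities: per the file headers, a background-subtracted processed signal per spot, in which a dim spot carries a surrogate value, and marks for outliers and for spots well above background. The series matrix that the authors deposited holds intensities of the same spots without background subtraction.

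After log2 transformation the processed signals of the 6 arrays were quantile normalized, as the methods do, and spots of the same probe were averaged. Outlier spots were missing, and 14 probes, none of a Hox gene, were left out. A probe was well above background where at least 0.5 of its spots were. A gene was represented by its brightest probe and tested if that probe was above background on all 3 arrays of a group. limma 3.58.1 in R 4.3.3 compared 3 with 3 arrays, with Benjamini-Hochberg adjustment over 20645 genes or 31848 probes. Where no array of 1 group was above background, the fold is given as a lower limit, the mean of the brighter group against, on each dim array, the higher of the lowest signal well above background and its own. The fit was tested on simulated data. Sequences and plots used Python 3.11.15, pandas 2.3.3 and matplotlib 3.10.9. The number of arrays limits the precision, and p-values measure the spread between cultures of 3 mice a group. Where the signals of a group lie at the floor of the arrays, their spread is not one between cultures, and the p-value is a description.

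The Hox genes are named, except that 1 called gene and some genes of the other lists are not reported here. Of the other lists, up to 4 called genes in each direction are named, plus Meis1, Tbx4, Tbx5, Pitx1, Prrx1, Col1a1, Pdgfra, Ctsk, Calcr, Kit and Cd34, and marker lists are otherwise given by counts. The members and lists were chosen with earlier results of these data known. Alternatives changed 1 choice at a time: scaling, background correction, the series matrix, the filter, the mean of all probes, the replicate block, the variance model, the methods' t-test, a fold threshold and each array left out.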

Additional observations from a re-analysis of the deposited data

How the results depend on the processing

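Hoxa10, Hoxc6 and Hoxc9 kept their direction and their call in every alternative run for them. The 3 higher genes became 6 without a filter on dim probes and with a filter at 2 of 3 arrays, and 0 with a filter on all 6 arrays, which they cannot pass. Higher probes numbered 8, 7 and 0 in the same settings against 4, beside 12.3%, 21.3% and 20.7% of all probes. Lower genes numbered 0 at more than 2-fold and 5 without normalization between arrays, a setting chosen after seeing the data, as was the filter at 2 of 3 arrays. The shares of all genes called lower were 7.19% at more than 2-fold and 33.9% without normalization. Lower probes fell from 4 to 1 at more than 2-fold and to 2 with no filter, a filter on all 6 arrays, normexp, the methods' t-test and the replicate block. With each array left out, higher genes ranged from 3 to 4, lower genes from 2 to 4, higher probes from 4 to 5 and lower probes from 2 to 4. The shares of all genes in these runs were 19.9% to 21.0% higher and 23.6% to 25.4% lower, and those of all probes 18.3% to 19.6% and 24.8% to 27.4%. The adjusted p of Hoxa4, not called with normexp (0.0567), ranged from 0.00238 to 0.0632. Hoxb3 turned to −0.072 with the mean of all probes, which takes in one below background on all 6 arrays, and −0.051 without normalization between arrays, where Hoxa7 and Hoxa9 were called lower (adjusted p 0.0438 and 0.0253). The cause of these changes was not tested.

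Replicate numbers are shared by the groups but were not shown to pair mice (correlations of same-numbered arrays 0.004, −0.062 and −0.081). With the number as a replicate block, 3 Hox genes were higher and 2 lower, Hoxa4 among them, beside 20.3% and 24.6% of all genes. Hoxb4 then had a limma adjusted p of 0.0556. Signal over background limits the family, since 31 of 52 Hox probes were above background on no array.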

Other observations

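Chromatin regulators that act on the Hox clusters were measured as well. The Trithorax-side chromatin regulators, which keep Hox genes active, were tested in 16 of 16 cases, with 2 higher (Kdm6b by 1.12 and Aff4 by 0.50) and 6 lower, the largest differences being those of Dpy30 (−0.83), Men1 (−0.55), Kdm6a (−0.45) and Kat6a (−0.34). Of 24 Polycomb-side regulators, which keep them silent, 5 were higher and 7 lower. Of all genes tested 23.4% were higher and 29.0% lower, and the Polycomb-side counts lie close to these shares. Rnf2 rose by 0.87, and Jarid2 (−1.09) and Phf19 (−0.97) had the largest falls. Among the called genes, the probes of Phf19, Cbx7, Cbx8 and Bmi1 differed in sign, and so did those of several genes without a call. Expressed as medians, the differences were −0.19 for the Trithorax-side list and −0.14 for the Polycomb-side list, beside −0.06 for all genes tested.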
